A study of Mus musculus with 24 samples.

Results

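Phosphatidylethanolamine (PE) and phosphatidylserine (PS) are aminophospholipids of cell membranes, and 10 genes that encode enzymes of their synthesis were examined in mouse skeletal muscle. The genes were Pisd, Ptdss1, Ptdss2, Etnk1, Etnk2, Pcyt2, Selenoi, Cept1, Chka and Chkb. They were picked by symbol for their place in the pathway, out of 55416 genes in the table, by a rule that uses no measured value, although earlier results of these data were known when the list was drawn up. Of the 10 genes, 9 passed the filter on low counts that left 16408 genes for testing, and Etnk2 did not.

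RNA was sequenced from the gastrocnemius of 24 adult mice in 4 groups of 6, with sham and SMC mice of each sex. SMC is the small mouse cage, a low acrylic box that restricts movement while food and water stay freely available, and its mice had spent 8 weeks in it, while sham mice stayed ambulatory. The strain is labelled C56BL6J, the study's methods describe mice bought at 8 weeks of age for these experiments, and the labels give no engineered allele and no drug in any group. Per the study's methods, mice of all groups were fasted for 4 hours and injected with ketamine and xylazine before their tissue was taken. Whether the sequenced sham and SMC mice were housed singly or in pairs is not given in the sources used here, and nothing ties a mouse of one group to a mouse of another.

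PE is made by separate routes in separate membranes. In the inner mitochondrial membrane, PS decarboxylase (PSD, encoded by Pisd) removes the carboxyl group of PS, and most mitochondrial PE comes from this step. The CDP-ethanolamine pathway phosphorylates ethanolamine (ETNK1, ETNK2 and the choline kinases) and activates it with CTP (PCYT2). In the endoplasmic reticulum and Golgi it then joins it to diacylglycerol (CEPT1 and SELENOI). PS itself is made in the endoplasmic reticulum near mitochondria by exchange of serine for the choline of phosphatidylcholine (PTDSS1) or the ethanolamine of PE (PTDSS2). In muscle, PE is a major lipid of the inner mitochondrial membrane, and loss of choline kinase beta causes a muscular dystrophy in mice.

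The libraries held between 23026627 and 36880413 counted reads, and all 24 matched their labelled sex by Xist and Ddx3y. All 8 skeletal muscle fibre markers were abundant, with a summed level of 157209 to 412023 CPM (reads scaled to library size). The sum was lowest of its group in female sham replicate 8 (157209 CPM, group median 280044) and male sham replicate 1 (157899 CPM, group median 246273). Female sham replicate 8 also had the highest summed fibroblast, macrophage, Schwann cell and red blood cell markers of its group. In 2 libraries, male sham replicate 4 and female sham replicate 7, the 10 slow fibre markers summed to 91.4 and 76.4 CPM, whereas the lowest of the other 22 libraries held 715 CPM. Correlations over mice and the averaged result of Chka are given with and without these 2 libraries. Whole muscle was sequenced, so fewer cells of a type and less RNA per cell cannot be told apart. The labels number the libraries, and each was taken as a separate animal because the study's methods count samples by individual mouse. No cage or litter is given.

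To ask which of the genes had the most RNA in the whole muscle, levels were compared per length, as CPM per kilobase of exon. Across all 24 mice the median was highest for Cept1 (5.65 CPM per kilobase), followed by Ptdss1 (4.86), Pcyt2 (3.98), Etnk1 (2.95), Ptdss2 (2.27), Chkb (2.17), Selenoi (1.12), Pisd (1.04), Chka (0.333) and Etnk2 (0.0523). The ranges of neighbours in this order overlapped, except for Chkb and Selenoi, whose lowest (1.42 CPM per kilobase) and highest (1.36 CPM per kilobase) values did not meet. With the longest transcript in place of all exons, Pcyt2 (9.19), Etnk1 (6.34), Cept1 (6.25) and Ptdss1 (6.09) came first, while ranks 5 to 10 stayed as they were. Related enzymes were unequal. Per kilobase of exon, Ptdss1 stood at 2.02 to 2.27 times Ptdss2 in the group medians, and Chka at 0.108 to 0.244 times Chkb. These ratios depended on the length used. With the longest transcript, the medians over all mice were 0.861 for Chka and 2.71 for Chkb, and 6.09 for Ptdss1 and 3.52 for Ptdss2. Of the exon bases, 50.7% of Chkb overlap Gm44502, 24.7% of Cept1 overlap Dennd2d and 20.1% of Pisd overlap Gm20671. How reads in such bases were counted is not given in the sources used here, and the levels were not corrected for it.

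**Figure D1:**
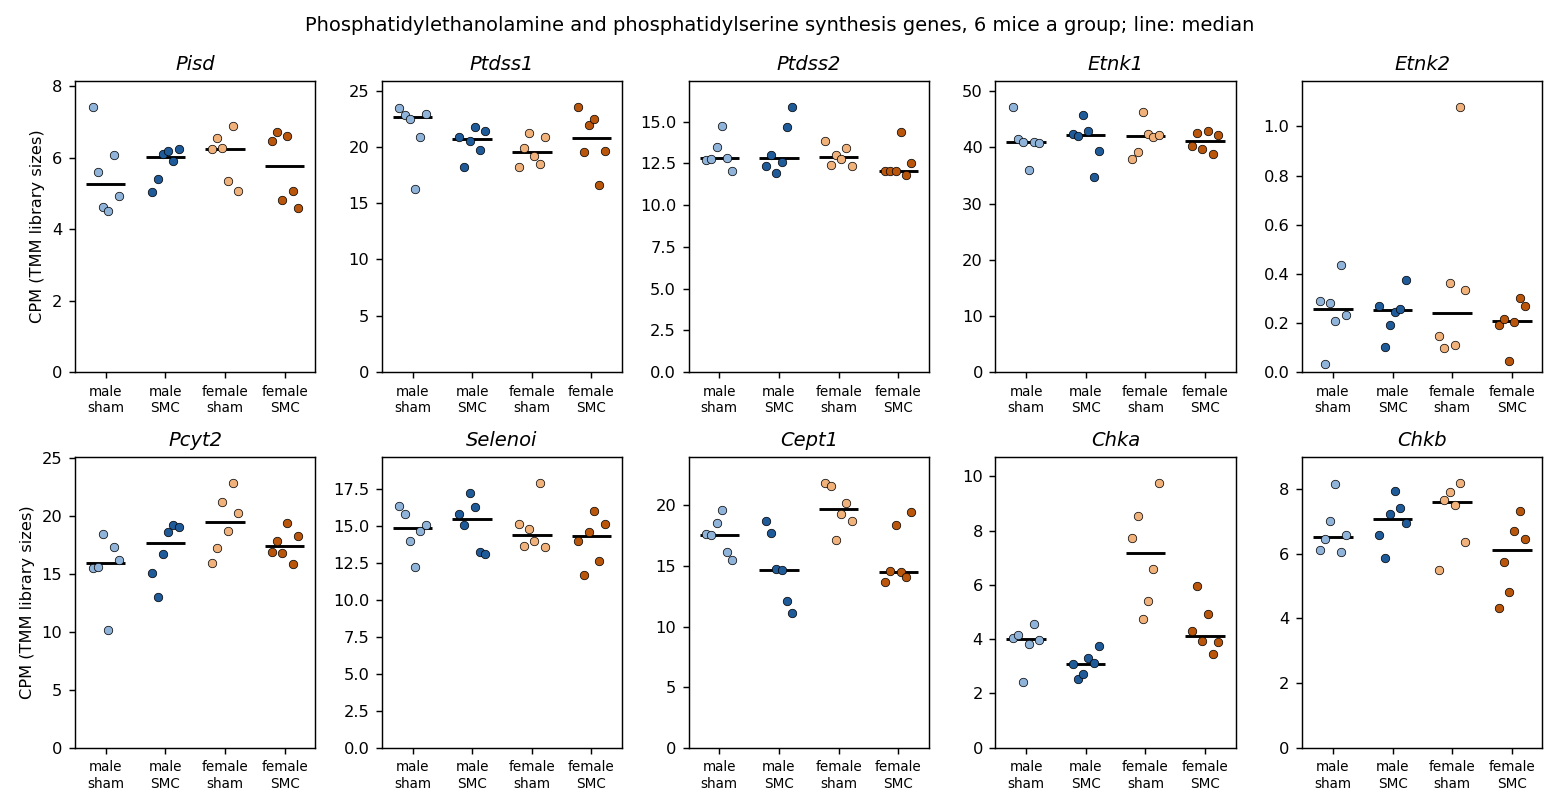
Level of each gene in CPM (y axis, from 0, TMM library sizes) in each of the 6 mice of the 4 groups, with the group median as a line. Chka medians run from 3.10 CPM in male SMC to 7.18 CPM in female sham, and Cept1 medians from 14.5 CPM in female SMC to 19.7 CPM in female sham, whereas Etnk1 medians lie between 41.0 and 42.2 CPM.

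The first comparison asked whether SMC housing changed expression of these genes within each sex. In males, 0 of the 9 tested genes passed a false discovery rate (FDR) of 0.05 in edgeR's quasi-likelihood test, where 0% of all genes tested did so (0 genes, with 1805 at an unadjusted p under 0.05 and 107 called by DESeq2). In females, 0 of 9 passed, against 0.341% of all genes. When the male and female differences were averaged, 1 of 9 passed, Chka, which fell, against 2.36% of all genes in either direction and 1.33% in that direction. The interaction, the male minus the female difference, passed for 0 of 9 members and 0% of all genes (0 genes, with 841 at an unadjusted p under 0.05 and 1 called by DESeq2). At an unadjusted p under 0.05 the members lower in SMC were Cept1 in males (5.59% of all genes) and Cept1, Chka and Chkb in females (7.47% of all genes). The averaged log2 fold change was below 0 for 9 of 9 members and for 52.4% of all genes, but 6 of the 9 values lay between -0.02 and -0.003, and several turned sign with a single library left out.

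**Figure D2:**
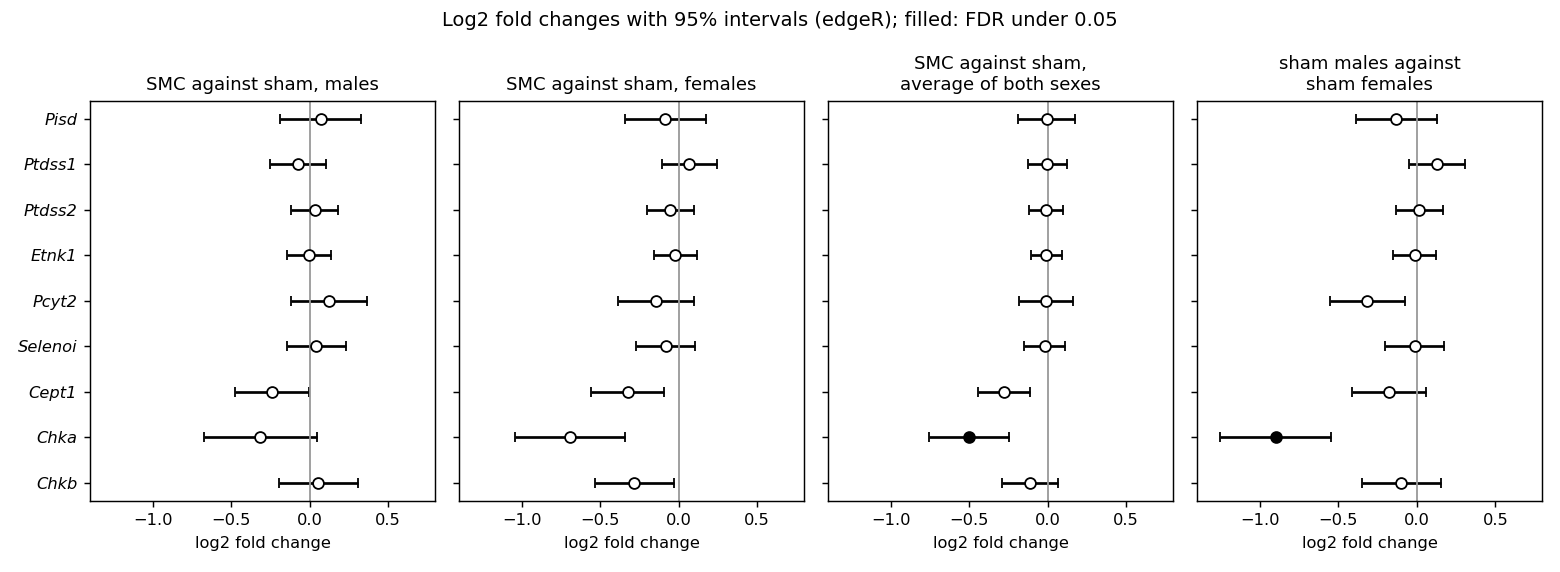
Log2 fold changes (x axis) from edgeR, with 95% intervals derived from its test statistic, for the 9 tested genes in 4 comparisons, where filled points passed an FDR of 0.05. The filled points are both Chka, at -0.50 in the averaged SMC comparison and at -0.90 in sham males against sham females.

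Pisd encodes the decarboxylase of the mitochondrial route, and its level in SMC muscle did not differ detectably from sham in either sex. In male sham mice Pisd ranged from 4.51 to 7.41 CPM with a median of 5.27, and in male SMC mice from 5.03 to 6.23 CPM with a median of 6.01. In female sham mice it ranged from 5.06 to 6.89 CPM with a median of 6.25, and in female SMC mice from 4.60 to 6.73 CPM with a median of 5.77. The groups overlapped in both sexes, and the male SMC mice all lay inside the range of the male sham mice. The log2 fold change was 0.07 ± 0.13 (SE; FDR 0.894) in males, with a 95% interval from -0.19 to 0.33, and -0.09 ± 0.13 (FDR 0.840) in females, with an interval from -0.34 to 0.17. In percent, the intervals ran from -12.3 to 25.6 in males and from -21.3 to 12.8 in females. Averaged over both sexes the log2 fold change was -0.0078 ± 0.089 (FDR 0.980), with an interval from -0.19 to 0.18. Male sham replicate 1 was the highest of the 24 mice, and without it the male log2 fold change was 0.17.

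Pisd has pseudogenes that could share reads with it. By alignment of GENCODE transcripts, Pisd-ps1 matched Pisd at 93.7% of 910 aligned bases and Pisd-ps2 at 96.3% of 378, and their longest identical runs were 97 and 139 bases. Pisd-ps1 was counted at a median of 2.10 CPM and Pisd-ps2 at 0.617 CPM over the 24 mice. When the counts of Pisd and both pseudogenes were added, the log2 fold change was 0.12 in males (FDR 0.765), -0.11 in females (FDR 0.758) and 0.0046 averaged (FDR 0.988). The averaged value changed sign and remained near 0, and no comparison of Pisd passed the threshold either way. The annotated exons of Pisd share 20.1% of their bases with the same-strand readthrough model Gm20671.

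RefSeq gives Pisd more than 1 start site, and the counts combine transcripts from all of them, so the bases before each start are shown. The windows cover the 250 bases upstream of a start in build GRCm38.p6, on the minus strand, at chr5:32746343-32746592 and chr5:32785627-32785876, printed 5′ to 3′ with matches to the searched motifs in capitals.
Pisd, inner start: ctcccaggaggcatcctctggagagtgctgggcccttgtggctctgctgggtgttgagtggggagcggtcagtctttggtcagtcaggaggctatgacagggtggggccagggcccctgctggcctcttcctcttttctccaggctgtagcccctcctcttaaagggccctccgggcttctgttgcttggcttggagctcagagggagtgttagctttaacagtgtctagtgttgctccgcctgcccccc
Pisd, outer start: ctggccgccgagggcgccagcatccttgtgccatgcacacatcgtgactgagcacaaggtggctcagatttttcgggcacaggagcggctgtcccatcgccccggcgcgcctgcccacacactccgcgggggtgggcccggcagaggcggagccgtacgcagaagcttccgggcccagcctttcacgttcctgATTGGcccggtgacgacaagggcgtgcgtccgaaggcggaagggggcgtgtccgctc
The motifs searched on both strands were the CCAAT box (CCAAT), the GC box (GGGCGG), the E-box (CACGTG), the cAMP response element (TGACGTCA) and a nuclear receptor half-site (AAGGTCA). Of 32851 RefSeq windows of this length, 33.8%, 32.7%, 6.02%, 1.55% and 4.08% held them. The outer Pisd window held 1 CCAAT box, read on the other strand, and the inner window held none of these letters. The GC content was 68.8% in the outer and 61.2% in the inner window. Of the 10 genes, 8 had a window in the table.

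Across mice, the genes whose log2 CPM deviated from its group means most like that of Pisd were Zcchc4 (r = 0.84), Wee1 (0.78), Zmynd8 (0.78), Fmo2 (0.76) and Idh1 (0.75), over 24 mice that share their libraries. Without male sham replicate 4 and female sham replicate 7 these values lay between 0.72 and 0.85. Zcchc4 encodes an RNA methyltransferase, Wee1 a cell cycle kinase, Zmynd8 a chromatin reader, Fmo2 a flavin monooxygenase and Idh1 the cytosolic isocitrate dehydrogenase. Pisd-ps1 (r = 0.20) and Pisd-ps2 (r = -0.19) followed Pisd far less closely.

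The PS synthases did not differ detectably from sham in SMC muscle. Ptdss1, which uses phosphatidylcholine, ranged from 16.2 to 23.5 CPM over all 24 mice, and its group medians were 22.7 in male sham, 20.7 in male SMC, 19.6 in female sham and 20.8 in female SMC. Its log2 fold change was -0.07 ± 0.085 (FDR 0.811) in males and 0.07 ± 0.086 (FDR 0.811) in females. The male and female values pointed in opposite directions, and the interaction was -0.14 ± 0.12 (FDR 0.988). Without male sham replicate 4, the lowest of its group, the male value was -0.15 and the interaction -0.22. The lowest male FDR in the 24 fits that left out 1 mouse was 0.466. Ptdss2, which uses PE, ranged from 11.8 to 15.9 CPM, and its group medians lay between 12.1 and 12.9. Its log2 fold change was 0.03 ± 0.072 (FDR 0.918) in males and -0.05 ± 0.073 (FDR 0.820) in females. The averaged 95% intervals ran from -0.13 to 0.12 for Ptdss1 and from -0.12 to 0.09 for Ptdss2. Of the exon bases of Ptdss1, 5.33% overlap the antisense gene Mterf3, and whether reads were counted by strand is not given in the sources used here.

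In the CDP-ethanolamine pathway, Etnk1, Etnk2 and Pcyt2 also did not differ detectably from sham. Etnk1, an ethanolamine kinase, was the most counted of the 10 genes, with 778 to 1794 reads per library and 34.7 to 47.1 CPM. Its log2 fold change was -0.0017 ± 0.068 (FDR 0.995) in males and -0.02 ± 0.068 (FDR 0.940) in females. Its averaged 95% interval, from -0.11 to 0.09, was the narrowest of the 9. Etnk2, the paralog, had 1 to 30 reads per library and was not tested with the other genes. Its group medians were 0.210 to 0.256 CPM, and female sham replicate 11, with 1.08 CPM, was the only library above 0.436 CPM. In a fit with no filter its log2 fold change was -0.05 in males (FDR 1) and -0.73 in females (FDR 0.621), and no difference was detectable at this depth.

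Pcyt2, the enzyme that usually limits the pathway, had differences of opposite sign in the sexes, neither of which passed the test. In males the median was 15.9 CPM in sham (range 10.2 to 18.4) and 17.7 CPM in SMC (13.04 to 19.3). In females it was 19.5 CPM in sham (15.99 to 22.8) and 17.4 CPM in SMC (15.8 to 19.4). The groups overlapped in both sexes. The log2 fold change was 0.12 ± 0.12 (FDR 0.765) in males and -0.14 ± 0.12 (FDR 0.669) in females, and their difference was 0.27 ± 0.17 (FDR 0.958). Without male sham replicate 4 the male value was 0.02.

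Selenoi, the selenoprotein that transfers phosphoethanolamine to diacylglycerol, ranged from 11.7 to 17.9 CPM over the 24 mice. Its log2 fold change was 0.04 ± 0.091 (FDR 0.914) in males and -0.08 ± 0.091 (FDR 0.777) in females, and the groups overlapped. Cept1, which performs the same transfer and also makes phosphatidylcholine, had lower medians in SMC in both sexes. In males Cept1 ranged from 15.5 to 19.6 CPM in sham (median 17.6) and from 11.1 to 18.7 CPM in SMC (median 14.7). In females it ranged from 17.2 to 21.8 CPM in sham (median 19.7) and from 13.6 to 19.5 CPM in SMC (median 14.5). In each sex, 4 of the 6 SMC mice lay below every sham mouse of that sex and the other 2 within the sham range. The log2 fold change was -0.24 ± 0.11 (FDR 0.453) in males and -0.33 ± 0.11 (FDR 0.200) in females. Averaged, it was -0.28 ± 0.081 (95% interval -0.45 to -0.11), and its FDR of 0.0610 missed the threshold. DESeq2 (FDR 0.0299) and a filter of at least 10 counts in every library (FDR 0.0493) placed Cept1 past it, and over all 6 alternatives the FDR ran from 0.0299 to 0.109. It also passed in 5 of the 24 fits that left out 1 mouse (without female SMC 21, female SMC 24, female sham 9, male SMC 13 or male SMC 14; FDR 0.0322 to 0.0479). The male and female values of Cept1 differed by 0.09 ± 0.16 (FDR 0.997). Of the exon bases of Cept1, 24.7% overlap the antisense gene Dennd2d, whose own averaged log2 fold change was 0.16 ± 0.39.

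The kinases at the head of the pathway gave the one change that passed the test. Chka, choline kinase alpha, which phosphorylates choline and, less efficiently, ethanolamine, fell with SMC when both sexes were averaged. In males Chka ranged from 2.41 to 4.56 CPM in sham (median 4.01) and from 2.52 to 3.77 CPM in SMC (median 3.10). Male sham replicate 3, at 2.41 CPM, was the lowest mouse of all, and the other 5 male sham mice lay above the 6 male SMC mice. In females Chka ranged from 4.76 to 9.75 CPM in sham (median 7.18) and from 3.44 to 5.97 CPM in SMC (median 4.12). Here 4 of the 6 SMC mice lay below every sham mouse. The log2 fold change was -0.31 ± 0.18 (FDR 0.530) in males and -0.69 ± 0.17 (FDR 0.0651) in females. Averaged, it was -0.50 ± 0.12 (FDR 0.0292), so that Chka fell by 29.4% (95% interval -40.7% to -15.9%). The change was not shown to differ between the sexes, since the interaction was 0.38 ± 0.24 (FDR 0.961). In females DESeq2 placed Chka past the threshold (FDR 0.0149), while the FDR over all 7 alternatives ran from 0.0149 to 0.196.

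The averaged call of Chka lay close to the threshold. It passed under 5 of 6 alternatives (FDR 0.0063 to 0.0545), the exception being limma with sample weights (log2 fold change -0.42, FDR 0.0545). It was lost (FDR 0.0507 to 0.0536) in 6 of the 24 fits that left out 1 mouse, namely without female SMC 23, female sham 12, female sham 8, male SMC 15, male sham 1 or male sham 2. The log2 fold change stayed between -0.56 and -0.45 in all 24. Without male sham replicate 4 and female sham replicate 7 together it was -0.49 (FDR 0.0435). Chka had 69 to 266 reads per library.

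Some markers of muscle fibres and of other cell types also differed in level between the groups at an unadjusted p under 0.05, with 0 past the FDR. In the averaged comparison, 3 of 8 skeletal muscle fibre markers, 2 of 6 Schwann cell markers and 1 of 6 endothelial markers were higher in SMC (7.9% of all genes), and 1 of 7 tendon cell and 1 of 6 fibroblast markers were lower (9.65% of all genes). The muscle fibre markers summed to 157899 to 315572 CPM in male sham, 288450 to 370989 CPM in male SMC, 157209 to 412023 CPM in female sham and 291430 to 373003 CPM in female SMC. The Schwann cell markers summed to 42.4 to 86.7 CPM in male sham and 72.7 to 116 CPM in male SMC, with 2 of 6 higher in males (5.41% of all genes), and to 58.02 to 161 CPM in female sham and 75.3 to 166 CPM in female SMC. All of these ranges overlapped between sham and SMC. The averaged comparison called 0 markers of slow fibres, fast fibres, adipocytes, macrophages or red blood cells at an unadjusted p under 0.05.

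In females, 5 of the 7 tendon cell markers and 2 of the 6 fibroblast markers were lower in SMC (7.47% of all genes), and in males 0 of either list was. The tendon cell markers summed to 275 to 1360 CPM in female sham (median 747) and 281 to 636 CPM in female SMC (median 463), against 367 to 742 CPM in male sham and 375 to 849 CPM in male SMC. The fibroblast markers summed to 464 to 1325 CPM in female sham and 512 to 726 CPM in female SMC, against 595 to 955 CPM in male sham and 651 to 833 CPM in male SMC. None of the markers in these lists was at 0 in every library, and their part in the levels of Chka and Cept1 was not tested.

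Chka also differed between the sexes in sham muscle, which was compared to learn whether male and female levels differed without the intervention. It was lower in sham males than in sham females by a log2 value of -0.90 ± 0.17 (FDR 0.0057; 95% interval -1.25 to -0.54), and the groups did not overlap (at most 4.56 CPM in males and at least 4.76 CPM in females). It was the only one of the 9 members past the FDR in this comparison (1.97% of all genes, and 1.14% in that direction) and the only one whose groups did not overlap (1.13% of all genes). The call held under all 6 alternatives (FDR 0.000119 to 0.0303) and in all 24 fits that left out 1 mouse (FDR 0.0020 to 0.0181). Pcyt2 was next, at -0.31 ± 0.12 (FDR 0.172), and the other 7 values lay between -0.18 and 0.13. The same sham mice enter this comparison and the SMC comparisons. Of the 7 tendon cell markers, 2 were lower in sham males at an unadjusted p under 0.05, as were 3 of 6 Schwann cell markers (9.23% of all genes), and their part in the sex difference was not tested.

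Chkb, choline kinase beta, showed values in opposite directions in the sexes. In males it ranged from 6.07 to 8.15 CPM in sham (median 6.52) and from 5.88 to 7.93 CPM in SMC (median 7.09). In females it ranged from 5.51 to 8.19 CPM in sham (median 7.59) and from 4.33 to 7.34 CPM in SMC (median 6.11). The groups overlapped in both sexes. The log2 fold change was 0.06 ± 0.12 (FDR 0.915) in males and -0.28 ± 0.12 (FDR 0.327) in females, and their difference of 0.34 ± 0.17 did not pass the test (FDR 0.955). Of the exon bases of Chkb, 50.7% are shared with the same-strand readthrough gene Gm44502, and the neighbouring gene Cpt1b, which encodes the muscle carnitine palmitoyltransferase, had log2 fold changes of 0.05 ± 0.15 in males and -0.06 ± 0.15 in females.

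The bases before the starts of Chka and Cept1 are shown because these genes had the largest differences. The windows are the 250 bases upstream in GRCm38.p6, from RefSeq, at chr19:3851523-3851772 on the plus strand for Chka and at chr3:106547803-106548052 on the minus strand for the outermost of the 3 Cept1 starts. Capitals mark motif matches.
Chka: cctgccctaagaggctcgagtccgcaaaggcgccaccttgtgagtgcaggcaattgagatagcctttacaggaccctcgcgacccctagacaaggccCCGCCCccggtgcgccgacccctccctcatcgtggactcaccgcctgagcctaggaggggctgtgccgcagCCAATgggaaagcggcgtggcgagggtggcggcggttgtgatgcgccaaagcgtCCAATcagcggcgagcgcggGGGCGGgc
Cept1: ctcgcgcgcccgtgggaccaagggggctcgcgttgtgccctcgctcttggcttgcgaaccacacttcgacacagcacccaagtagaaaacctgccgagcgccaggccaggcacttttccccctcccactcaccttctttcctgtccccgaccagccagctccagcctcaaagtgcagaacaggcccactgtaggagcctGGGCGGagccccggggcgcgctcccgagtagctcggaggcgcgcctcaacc
The Chka window held 2 CCAAT boxes and 2 GC boxes, and that of Cept1 held 1 GC box. Neither held the E-box, the cAMP response element or the nuclear receptor half-site. The GC content was 68% for Chka and 66.8% for Cept1.

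The supply and fate of PE and PS were then followed in 87 further genes in 7 lists, of which 78 were tested. In males and in females separately, 0 of 78 passed the FDR. Averaged over both sexes 2 of 78 did, both lower in SMC, a share of 2.56% that is close to the 2.36% of all genes. At an unadjusted p under 0.05, the averaged counts were 3 higher and 7 lower (7.9% and 9.65% of all genes). Pnpla8, a mitochondrial and peroxisomal phospholipase A2, fell by a log2 value of 0.30 ± 0.069 (FDR 0.0239), and its median went from 147 to 134 CPM in males and from 137 to 109 CPM in females. The call of Pnpla8 held under all 6 alternatives and in all 24 fits that left out 1 mouse (FDR at most 0.0441). Gpat3, a glycerol-3-phosphate acyltransferase that starts phosphatidic acid synthesis, fell by 0.49 ± 0.13 on the log2 scale (FDR 0.0491), and its female SMC mice (3.23 to 6.39 CPM) did not overlap the female sham mice (6.73 to 10.6 CPM), as was so for 1.03% of all genes. That call passed under 3 of 6 alternatives (FDR 0.0151 to 0.0758) and was lost in 18 of 24 fits that left out 1 mouse.

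By list, the phosphatidic acid and diacylglycerol genes had the lowest averaged median, -0.15 over 11 tested genes, where the median of all genes was -0.0089. The list was taken up because its median was the lowest, and the list as a set was not tested. Of these 11, 7 were below 0, as were 52.4% of all genes. At an unadjusted p under 0.05, 4 were lower (9.65% of all genes). These were Gpat3, the acyltransferase Agpat3 (-0.15 ± 0.059, FDR 0.161) and the phosphatidate phosphatases Lpin1 (-0.22 ± 0.10, FDR 0.256) and Lpin3 (-0.35 ± 0.13, FDR 0.158). By sex, 0 of the 11 were lower at that p in males (5.59% of all genes) and 5 of the 11 in females (7.47%). The 5 were the same 4 and Agpat5 (-0.22 ± 0.092, FDR 0.308), which had 0.05 ± 0.092 in males. Lpin3 had 0.02 ± 0.19 in males (FDR 0.982) and -0.73 ± 0.19 in females (FDR 0.0814), and the difference of 0.75 ± 0.27 did not pass the test (FDR 0.926). The values in males and females were -0.07 and -0.24 for Agpat3, -0.12 and -0.31 for Lpin1 and -0.35 and -0.63 for Gpat3, and their interactions did not pass the test either (FDR 0.970, 0.997 and 0.996). The medians of the other lists lay between -0.08 for 6 plasmalogen genes and 0.04 for 20 genes of remodelling, flipping and turnover. The 5 tested genes of phosphatidylcholine synthesis had a median of 0.04 with 0 at an unadjusted p under 0.05. The 12 genes of ethanolamine and serine supply had a median of -0.01, also with 0.

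**Figure D3:**
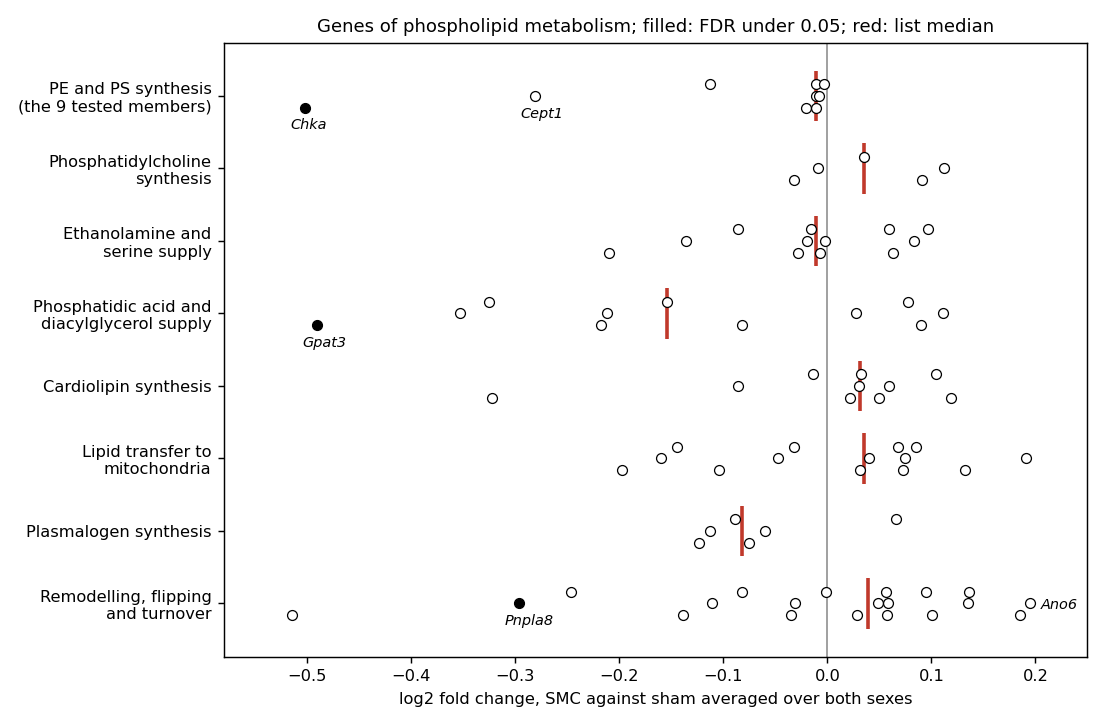
Log2 fold change of SMC against sham averaged over both sexes (x axis) for each tested gene of the 9 members and the 7 further lists (rows), with the list median in red and genes past an FDR of 0.05 filled. Chka, Gpat3 and Pnpla8 are the filled points, all to the left of 0.

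Averaged, 1 of the 14 tested genes of transfer to mitochondria was higher and 2 were lower at an unadjusted p under 0.05. The shares of all genes were 7.9% and 9.65%. Mfn2 (0.19 ± 0.075, FDR 0.175), a mitochondrial fusion protein, was higher. The transfer proteins Osbpl8 (-0.16 ± 0.062, FDR 0.169) and Triap1 (-0.20 ± 0.086, FDR 0.227) were lower. Of the 20 genes of remodelling, flipping and turnover, 2 were higher and 1, Pnpla8, was lower at that p. The higher ones were the scramblase Ano6 (0.19 ± 0.054, FDR 0.0525) and the flippase Atp11a (0.14 ± 0.056, FDR 0.194). For Atp11a this average joined 0.29 ± 0.079 in males (FDR 0.161) and -0.02 ± 0.078 in females (FDR 0.950), whose difference was 0.31 ± 0.11 (FDR 0.926). The male and female values of Mfn2, Osbpl8, Triap1 and Ano6 had the same sign. For Ano6 the FDR over the 6 alternatives ran from 0.0183 to 0.121, and 3 of them placed it past the threshold. Mboat2, a lysophospholipid acyltransferase, had 0.13 ± 0.41 in males (FDR 0.944), -1.16 ± 0.40 in females (FDR 0.185) and -0.52 ± 0.28 averaged (FDR 0.356), and the averaged value was -0.09 without female sham replicate 11, which held 13.4 CPM while the group median was 2.32 CPM. Cds1, a CDP-diacylglycerol synthase, had 0.37 ± 0.47 in males, -1.02 ± 0.48 in females and -0.32 ± 0.33 averaged (FDR 0.666), and the averaged value turned to 0.19 without the same mouse. Between sham males and sham females, 2 of the 78 (2.56%) passed the FDR, against 1.97% of all genes, and both were chosen for naming after seeing their values. Shmt1, a serine hydroxymethyltransferase, was lower in males (-0.63 ± 0.12, FDR 0.0046), and Cdipt, the phosphatidylinositol synthase, was higher (0.29 ± 0.074, FDR 0.0372; lost in 4 of 24 fits that left out 1 mouse).

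Because the levels of slow fibre markers varied between libraries, each tested member was set beside a slow fibre score, the mean log2 CPM of the 10 slow fibre markers, and beside a mitochondrial score, the mean log2 CPM of 20 nuclear genes of mitochondria. Deviations from group means over 24 mice were correlated, which made 18 relations with Benjamini-Hochberg adjustment and within-group permutation tests. Of these, 4 had an adjusted p under 0.05, those of Pcyt2 and Ptdss1 with both scores. The share of all genes that would pass the same test was not computed, so the relations cannot be called particular to these 2 genes. Both scores were the lowest of their group in male sham replicate 4 (1.96 and 7.65) and male SMC replicate 14 (5.42 and 7.73). The 4 relations are therefore not separate results.

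With the slow fibre score, Pcyt2 had r = 0.79 (permutation p = 9e-05, adjusted p = 0.00162) and rho = 0.63 (permutation p = 0.00143, adjusted p = 0.0185). Ptdss1 had r = 0.67 (permutation p = 0.00019, adjusted p = 0.00171) and rho = 0.50 (permutation p = 0.00765, adjusted p = 0.0344). Male sham replicate 4 and female sham replicate 7 scored 1.96 and 1.67, apart from all others. Over the other 22 mice, Pcyt2 had r = 0.70 (permutation p = 0.00276, adjusted p = 0.0322) and rho = 0.57 (permutation p = 0.0165, adjusted p = 0.127), and Ptdss1 had r = 0.56 (permutation p = 0.0102, adjusted p = 0.0458) and rho = 0.50 (permutation p = 0.0304, adjusted p = 0.137). The relations thus stayed past 0.05 by r and not by rho. When the 2 mice then farthest from the median score, male SMC replicates 13 and 14, were also left out, r was 0.40 for Pcyt2 (permutation p = 0.108) and 0.56 for Ptdss1 (permutation p = 0.0411), so the relation of Pcyt2 rested on these mice.

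With the mitochondrial score, Pcyt2 had r = 0.80 (permutation p = 0.0004, adjusted p = 0.00234) and rho = 0.61 (permutation p = 0.00278, adjusted p = 0.0185). Ptdss1 had r = 0.75 (permutation p = 0.00052, adjusted p = 0.00234) and rho = 0.63 (permutation p = 0.00309, adjusted p = 0.0185). Without the 2 mice farthest from the median score, male sham replicate 4 and male SMC replicate 14, r was 0.52 for Pcyt2 (permutation p = 0.0247) and 0.54 for Ptdss1 (permutation p = 0.039). Without male sham replicate 4 and female sham replicate 7, Pcyt2 had r = 0.68 (permutation p = 0.00358, adjusted p = 0.0322) and rho = 0.53 (permutation p = 0.0208, adjusted p = 0.127), and Ptdss1 had r = 0.60 (permutation p = 0.00621, adjusted p = 0.0373) and rho = 0.57 (permutation p = 0.0212, adjusted p = 0.127). Without male SMC replicate 14 and female SMC replicate 23 as well, r was 0.42 for Pcyt2 (permutation p = 0.095) and 0.36 for Ptdss1 (permutation p = 0.201), and neither relation passed 0.05.

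Pisd followed neither score closely. Over 24 mice it had r = 0.22 with the slow fibre score (permutation p = 0.338, adjusted p = 0.507) and rho = 0.14 (permutation p = 0.513, adjusted p = 0.839), and r = 0.20 with the mitochondrial score (permutation p = 0.41, adjusted p = 0.568) and rho = 0.03 (permutation p = 0.91, adjusted p = 0.959). Without male sham replicate 4 and female sham replicate 7 the values of r were 0.21 and 0.04. No processing batch is given in the labels, so no within-batch value could be computed.

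**Figure D4:**
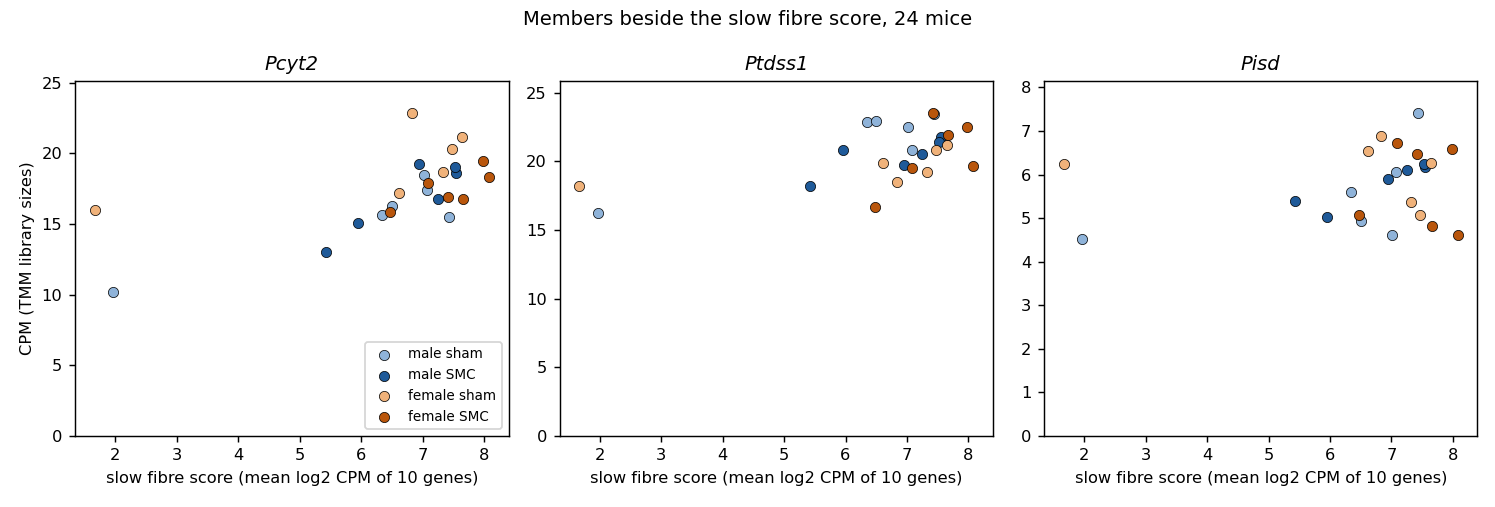
Levels of Pcyt2, Ptdss1 and Pisd in CPM (y axes, from 0) against the slow fibre score (x axis, mean log2 CPM of 10 genes) in all 24 mice, coloured by group. Male sham replicate 4 and female sham replicate 7 stand apart at scores of 1.96 and 1.67, and the 22 other mice lie to their right.

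Between members, the deviations from group means over 24 mice gave r from -0.51 (Pcyt2 and Cept1) to 0.62 (Pcyt2 and Ptdss1) over 36 pairs, as a description of libraries that share their depth and normalization. Without male sham replicate 4, which was the lowest of its group for Pcyt2 and Ptdss1, and female sham replicate 7, the value of Pcyt2 and Ptdss1 was 0.27 and that of Pcyt2 and Cept1 was -0.49. With and without these 2 mice, Etnk1 and Selenoi had r = 0.57 and 0.54, Chka and Chkb -0.24 and -0.22, and Pisd and Ptdss1 0.35 and 0.23. Pcyt2 and Ptdss2 went from 0.05 to 0.58, the highest of the 36 pairs without the 2 mice, so the order of the pairs depended on them. The mean coefficient of variation within groups ran from 7.21% for Etnk1 to 20.2% for Chka among tested members.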

How the data were processed

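RNA was sequenced from the gastrocnemius of 24 mice (6 in each of 4 groups, taken from the labels). The authors deposited 1 table of raw counts per Ensembl gene, not normalized. Per the labels, libraries were made with a directional kit after rRNA depletion, and the submitters' processing notes name cutadapt 1.16, STAR 2.7.9a, featureCounts 1.6, DESeq2 1.34.0 and build GRCm39 (mm39). Which annotation was used, and whether reads were counted by strand, is not given in the sources used here. Exon lengths and overlaps came from GENCODE M21 by gene identifier (52135 of 55416 matched). Symbols came from a separate list of gene names by the same identifier (52083 matched). No column was left out.

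Genes were filtered by filterByExpr (16408 kept), normalized by TMM and fitted by edgeR 4.0.16 (R 4.3.3), with quasi-likelihood tests, 1 mean per group and the contrasts named in the report. The common biological coefficient of variation was 0.206. Tests were two-sided, with Benjamini-Hochberg FDR under 0.05 over all tested genes. The p-values measure the spread between the mice sequenced. Values after ± are SE. CPM used TMM library sizes, and log2 CPM a prior count of 2. Permutations within groups numbered 100000. Scripts were tested on simulated data. Alternatives were DESeq2 1.42.0, RLE size factors, at least 10 counts in every library, no filter, 1 sex only, limma 3.58.1 voomWithQualityWeights, a prior count of 0.5, removal of male sham 4 and female sham 7, each library left out in turn, and, chosen after seeing the data, Pisd summed with its pseudogenes (aligned with blastn 2.17.0) and correlations between genes without male sham 4 and female sham 7. Among 60 pairs of libraries within groups none was a duplicate (smallest chi-square per degree of freedom 10.7).

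The members and lists were chosen with earlier results of these data known. Genes named besides the members were those of the 7 lists with an unadjusted p under 0.05 in an SMC comparison (at most 20), the Pisd pseudogenes, Cpt1b and the 5 genes most like Pisd, to which genes overlapping a member in the annotation and, chosen after their values were seen, Shmt1 and Cdipt were added. Pisd-ps3 had no match by symbol and has no value here.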

Additional observations from a re-analysis of the deposited data

Results flagged for a closer look

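Among 44 groups of 6 values tested (each tested member and both scores in each group), 7 held an outlying mouse by Dixon's test. In these groups the distance to its nearest neighbour, divided by the range of the group, exceeded the 95% critical value, and about 1 in 20 groups would by chance. Male sham replicate 4 was the lowest of its group for Pcyt2 (3.36 log2 CPM, the others 3.96 to 4.21), for Ptdss1 (4.03 log2 CPM, the others 4.39 to 4.56), for the slow fibre score (1.96, the others 6.34 to 7.43) and for the mitochondrial score (7.65, the others 8.14 to 8.33). Female sham replicate 7 was the lowest of its group for the slow fibre score (1.67, the others 6.62 to 7.64). Female SMC replicate 22 was the highest of its group for Ptdss2 (3.86 log2 CPM, the others 3.57 to 3.66). Male sham replicate 3 was the lowest of its group for Chka (1.31 log2 CPM, the others 1.96 to 2.21), and without it the male log2 fold change of Chka was -0.42.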

How the results depend on the processing

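No paired analysis was possible because the groups share no replicate numbers. The number of genes past the threshold, 0 in males, 56 in females, 388 averaged, 0 for the interaction and 324 between sham sexes, became 107, 268, 772, 1 and 575 with DESeq2. With sample weights it was 93 in males and 16 in females, with RLE size factors 37 in females, with 1 sex only 14 in females, with no filter 189 averaged, and without male sham 4 and female sham 7 it was 155 in females and 511 between sham sexes. With 1 library left out it ran over 0 to 78, 0 to 147, 236 to 501, 0 to 1 and 187 to 487. The number of members past the threshold, 0 in females and 1 averaged, became 1 and 2 with DESeq2, 2 averaged with at least 10 counts in every library and 0 averaged with sample weights, and ran over 0 to 1 and 0 to 2 with 1 library left out. Values near 0 changed sign. With sample weights these were Etnk1 in males (0.0014), Pisd (0.015), Ptdss2 (0.0030) and Cds1 (0.043) averaged, and Selenoi (0.047) and Ptdss2 (-0.018) between sham sexes. With no filter they were the interaction of Etnk1 (-0.0048), and Etnk1 (0.0071) and Selenoi (0.0095) between sham sexes. Without male sham 4 and female sham 7 they were Selenoi in males (-0.015), Ptdss2 averaged (0.013), the interaction of Etnk1 (-0.0064), Etnk1 (0.0051) and Selenoi (0.049) between sham sexes, and the correlations of Ptdss2 with both scores (0.36 and 0.30) and of Chka with the slow fibre score (0.092). Pisd summed with its pseudogenes gave 0.0046 averaged, and RLE size factors gave 0.0047 for Ptdss2 with the mitochondrial score. With 1 library left out, sign changes lay within -0.048 to 0.036 for Etnk1, -0.015 to 0.072 for Selenoi and -0.029 to 0.063 for Ptdss2 in males, -0.041 to 0.011 for Etnk1 in females, and -0.035 to 0.042 for Pisd, -0.032 to 0.0090 for Etnk1, -0.061 to 0.021 for Pcyt2, -0.047 to 0.0070 for Selenoi, -0.040 to 0.023 for Ptdss1, -0.040 to 0.0042 for Ptdss2 and -0.42 to 0.19 for Cds1 averaged. For the interaction they lay within -0.0029 to 0.15 for Cept1 and -0.032 to 0.058 for Etnk1, and between sham sexes within -0.052 to 0.031 for Etnk1, -0.042 to 0.048 for Selenoi and -0.011 to 0.041 for Ptdss2. The causes were not tested. Chka and Etnk2, with 69 to 266 and 1 to 30 reads per library, carried the most counting error.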
